A study of Capra hircus and Bos taurus with 7 samples.

Results

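The HOX cluster microRNAs (miRNAs) miR-10a, miR-10b, miR-196a and miR-196b were followed in small RNA of extracellular vesicles, the membrane-bound particles that cells release, isolated from reconstituted milk powders. The members were chosen by name, with earlier results of these data known, and all 4 (bta-miR-10a, bta-miR-10b, bta-miR-196a and bta-miR-196b, named below without the bovine prefix) were found among the 364 mature miRNAs of each count table. The 7 libraries comprised 3 from powder labelled whole milk (goat, Capra hircus, letters A to C), 3 from powder labelled skimmed milk (goat, letters A to C) and 1 from a commercial bovine powder (Bos taurus). In all of them the powder was taken up in warm water and the vesicles were separated by size exclusion chromatography. The labels do not say whether the letters stand for separate packs or for repeat isolations, so a p-value reflects no more than library-to-library spread, possibly technical. Library totals ranged from 5675489 to 11963849 miRNA reads, so that 1 read was worth between 0.0836 and 0.176 counts-per-million (CPM).

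The HOX genes encode the transcription factors that set position along the body axis, and the miR-10 and miR-196 genes lie within their clusters. Both families are known as repressors of HOX mRNAs, with HOXB8 as a textbook target of miR-196 and HOXD10 as one of miR-10b. A miRNA acts through its seed, a short stretch near its 5′ end that pairs with target mRNAs. The members of a family share their seed and differ by few bases. In the RefSeq gene table of the goat assembly ARS1.2, the nearest protein-coding genes found were HOXB5 and HOXB3 for MIR10A and HOXD8 and HOXD3 for MIR10B. They were HOXB13 and HOXB9 for MIR196A and HOXA9 and HOXA10 for MIR196B. HOXB4 and HOXD4 were not among the neighbours found, so closer genes may be missing for MIR10A and MIR10B. None of these miRNA loci was found inside a protein-coding gene of that table. No source used here names the assembly behind the counts, so coordinates are left out.

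The 4 miRNAs were minor components of the vesicle small RNA, at 0.0103% to 0.0559% of the miRNA reads in the goat libraries and 0.0653% in the bovine library. They held 852 reads in skimmed B, the fewest of any library, and 6229 in whole C, the most. Goat reads of the group were led by miR-10a in 5 of 6 libraries, with 59.6% to 91.2% of the group's reads, while in skimmed B and in the bovine library miR-196a led, with 72.4% and 99.2%. In bulk vesicle RNA, fewer vesicles carrying a miRNA and fewer copies per vesicle cannot be told apart.

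**Figure D1:**
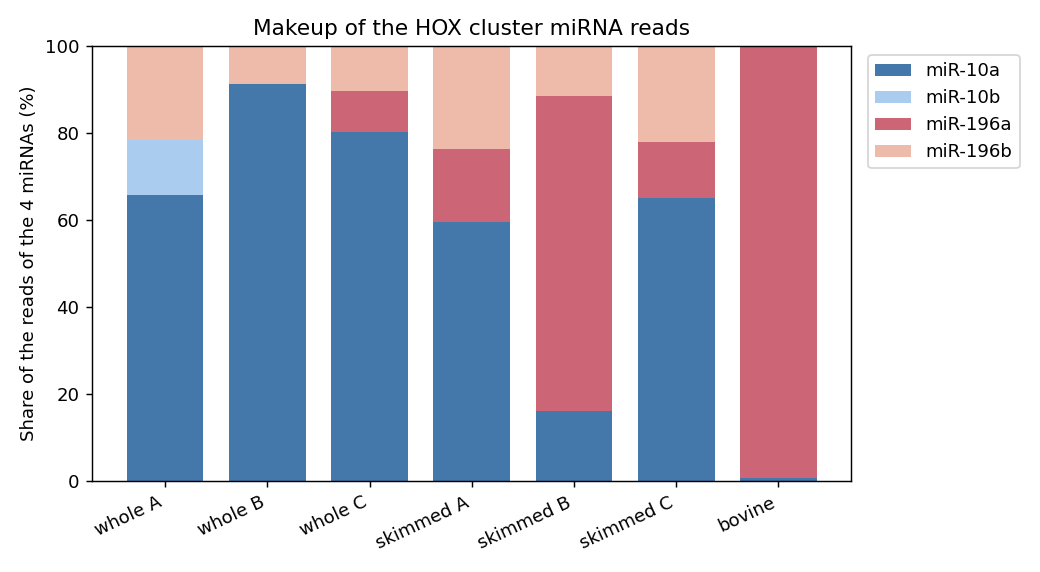
Share of the reads of miR-10a, miR-10b, miR-196a and miR-196b taken by each, in percent, for the 7 libraries. miR-10a makes up most of the bar in 5 goat libraries, miR-10b is visible only in whole A (12.5%), and miR-196a fills 72.4% of skimmed B and 99.2% of the bovine bar.

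miR-10a, the HOXB cluster member of its family, was the most abundant of the 4 in goat. It stood at 276, 290 and 417 CPM in whole A, B and C, and at 333, 16.5 and 214 CPM in skimmed A, B and C. Skimmed B was thus far below all other goat libraries, and the powders overlapped. By mean CPM over the 6 goat libraries miR-10a ranked at place 94 of 364, and within single libraries at places 85 to 99 except in skimmed B, where it ranked at place 188. The low value in skimmed B rested on 136.5 reads, with an exact 95% Poisson interval of 13.8 to 19.5 CPM that covers counting error only. A library at most at a 10th of every other goat library was seen for 4 to 7 of the 209 tested miRNAs per library, and for 6 in skimmed B, miR-10a among them.

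miR-196b, the HOXA cluster member of its family, came next in goat by mean CPM. Its values were 90.7, 26.8 and 53.5 CPM in whole A, B and C, and 133, 11.8 and 73.0 CPM in skimmed A, B and C. The lowest library was again skimmed B, the highest was skimmed A, and the whole libraries lay between them. miR-10a stood above miR-196b in all 7 libraries, by 1.39 times in skimmed B to 10.8 times in whole B. These are CPM without length correction.

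miR-196a, for which the goat gene table gave the locus MIR196A in the HOXB cluster, was present in some goat libraries and near absent in others. A count of the mature miRNA does not show which locus its reads came from. It stood at 0.457, 0.592 and 49.9 CPM in whole A, B and C, which are 3, 6 and 596.5 reads. In skimmed A, B and C it stood at 92.7, 74.5 and 42.0 CPM, with 334 to 860 reads. All 3 skimmed libraries and whole C therefore carried it, at 42.0 to 92.7 CPM, and whole C lay above skimmed C. By goat mean, miR-196a (43.3 ± 37.7 CPM, SD, n = 6) and miR-196b (64.8 ± 44.2 CPM, SD, n = 6) differed by less than their spread. miR-196b was the higher of them in 5 of the goat libraries, from 1.07 times in whole C to 198 times in whole A, and miR-196a was 6.30 times higher in skimmed B.

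miR-10b, the HOXD cluster member of its family, was found in 1 library above a few reads. Whole A held 343.5 reads, or 52.3 CPM, while whole B and C held 4.5 and 3.5 reads and skimmed A, B and C held 3, 0.5 and 4 reads. Its goat mean of 8.995 CPM rests on whole A, and without that library the mean was 0.325 ± 0.171 CPM (SD, n = 5). miR-10a was not raised in whole A, which at 276 CPM was the lowest whole library for it. In whole A, miR-10b made up 15.9% of the summed miR-10a and miR-10b reads, against 0.0701% to 0.365% in the other goat libraries.

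**Figure D2:**
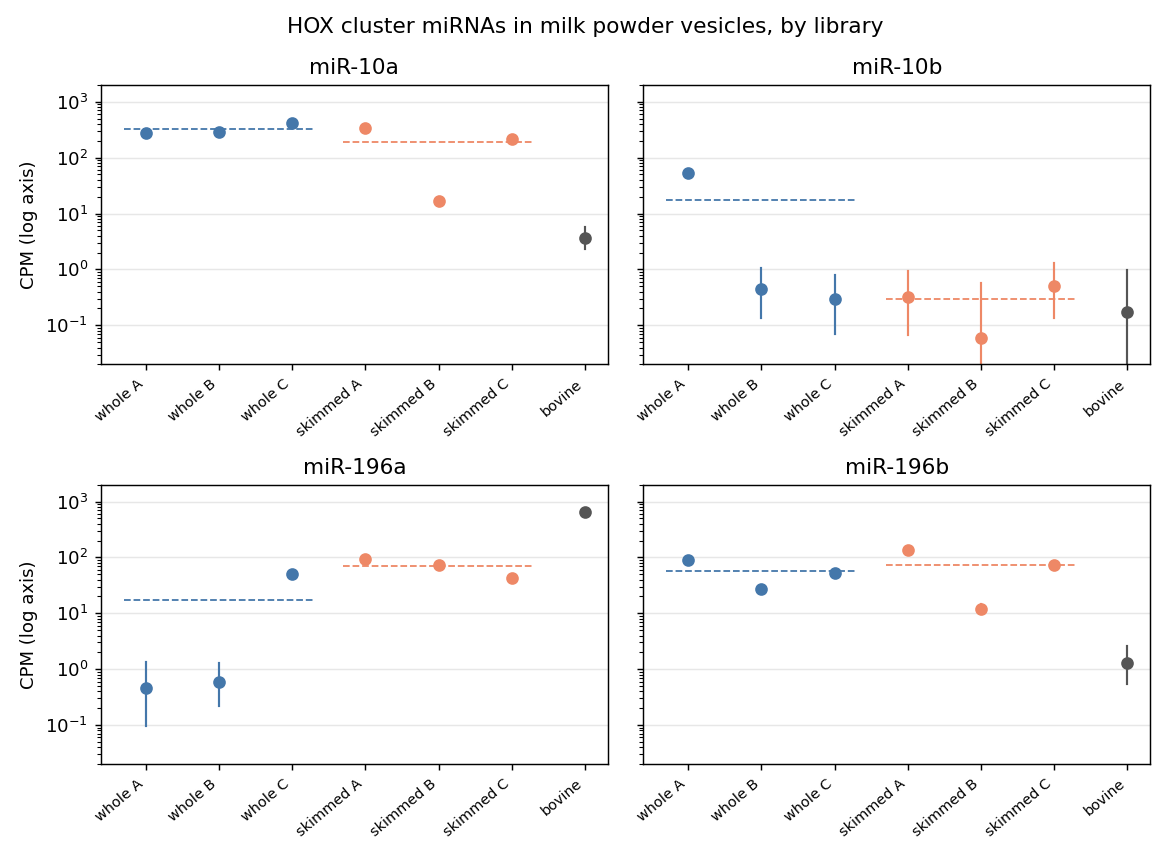
CPM of each HOX cluster miRNA by library, on a log axis; points are libraries, vertical lines are 95% Poisson intervals of the reads (counting error only, cut off at the lower axis end), and dashed lines are the means of the 3 whole and the 3 skimmed libraries. Skimmed B is low for miR-10a (16.5 CPM) and miR-196b (11.8 CPM), whole A and B are near 0 for miR-196a, and whole A alone carries miR-10b (52.3 CPM).

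Such all-or-none values were common in these tables. Counted as at least 100 reads in 1 goat library and at most 10 in another, they were seen for 123 of all 364 miRNAs, or 33.8%, and for 2 of the 4 HOX cluster miRNAs, miR-10b and miR-196a. Among the tested miRNAs the count was 58 of 209, or 27.8%, and it included 1 of the 3 tested members, miR-196a. In the libraries with at most 10 reads, miR-196a stood at 0.810% of its mean level in the libraries with at least 100 reads, and miR-10b at 0.620%. Over all 123 miRNAs the median of this percentage was 0.250%, with quartiles of 0.109% and 0.505%, so both HOX cluster miRNAs lay above the upper quartile and under the highest value of 1.75%. Between the goat libraries with the highest and the lowest level, miR-10a differed by 25.3 times, miR-196b by 11.2 times and miR-196a by 203 times, against a median of 3.07 times over the tested miRNAs; 63, 70 and 53 of the 209 tested miRNAs had a larger ratio.

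Reads may have been divided between near-identical names in these rows, which was not tested. Over all miRNAs 36.9% to 46.7% of nonzero values per library were whole, and how often the sums of other pairs were whole was not examined. Many deposited values are fractions, and miR-10a ended in exactly 0.5 in 5 of 7 libraries and miR-10b in 4. The sum of miR-10a and miR-10b was a whole number (within 1e-06) in 5 of 7 libraries, although miR-10a itself was whole in 1 and miR-10b in 3. The sum of miR-196a and miR-196b was whole in 4 of 7, no more often than miR-196a alone (4 of 7), with miR-196b whole in 3. The sources used here do not give how reads that match several names were divided, and single reads of miR-10b are uncertain for that reason.

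The comparison of powders labelled skimmed and whole asks whether the miRNA content differs between them. None of the HOX cluster miRNAs passed the threshold, an adjusted p of 0.05. edgeR's quasi-likelihood test (p-values adjusted over 209 miRNAs by Benjamini-Hochberg) covered 3 members and called 0 of them, against 1 of 209 (0.478%) over all miRNAs. At an unadjusted p under 0.05 it had 0 members, against 22 of 209 miRNAs (10.5%). The Wald test of DESeq2 called 0 members, against 22 of 243 miRNAs (9.05%), of which 4.12% of the 243 were higher and 4.94% lower in skimmed. Likewise limma-voom called 0 members, against 1 of 209 (0.478%). Its unadjusted p for miR-196a was 0.048, and the share of all 209 miRNAs under 0.05 in limma-voom is not given here. miR-10b did not pass the filter on low counts; in edgeR without that filter its log2 fold change was -5.92 (adjusted p = 0.42), and DESeq2 gave it no p-value. Whole and skimmed libraries overlapped in CPM for all 4, whereas 42 of the 209 tested miRNAs, or 20.1%, did not overlap.

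For miR-10a the whole-powder mean was 327 ± 77.9 CPM and the skimmed-powder mean 188 ± 160 CPM (SD, n = 3 each). Its log2 fold change was -0.69, with an SE of 0.89 (edgeR adjusted p = 0.94). This value rests on skimmed B: without it the log2 fold change was -0.15, and without skimmed A it was -1.47. For miR-196a the whole-powder mean was 17.0 ± 28.5 CPM and the skimmed-powder mean 69.7 ± 25.7 CPM. Its log2 fold change was 2.12, with an SE of 1.80 (edgeR adjusted p = 0.89). Here whole C set the size, since without it the log2 fold change was 7.12 and the edgeR adjusted p 0.20. For miR-196b the means were 57.0 ± 32.1 CPM (whole) and 72.6 ± 60.6 CPM (skimmed). Its log2 fold change was 0.45, with an SE of 1.13 (edgeR adjusted p = 0.96), and without skimmed A the sign turned (-0.39). Its value was 0.96 without whole A and likewise without skimmed B, and 0.10 without whole B. The spread limits what could be seen, as the SE of each of the 3 exceeded the median SE of 0.69 over the tested miRNAs. In simulated counts of the 209 tested miRNAs with the same spread, the edgeR test found 20.7% of the 4-fold changes placed below 1000 CPM. Of the 2-fold changes placed there it found 4.36%. The 3 tested members lie in that range, while miR-10b was not simulated. These are shares over all miRNAs of that range and not the values for any member.

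**Figure D3:**
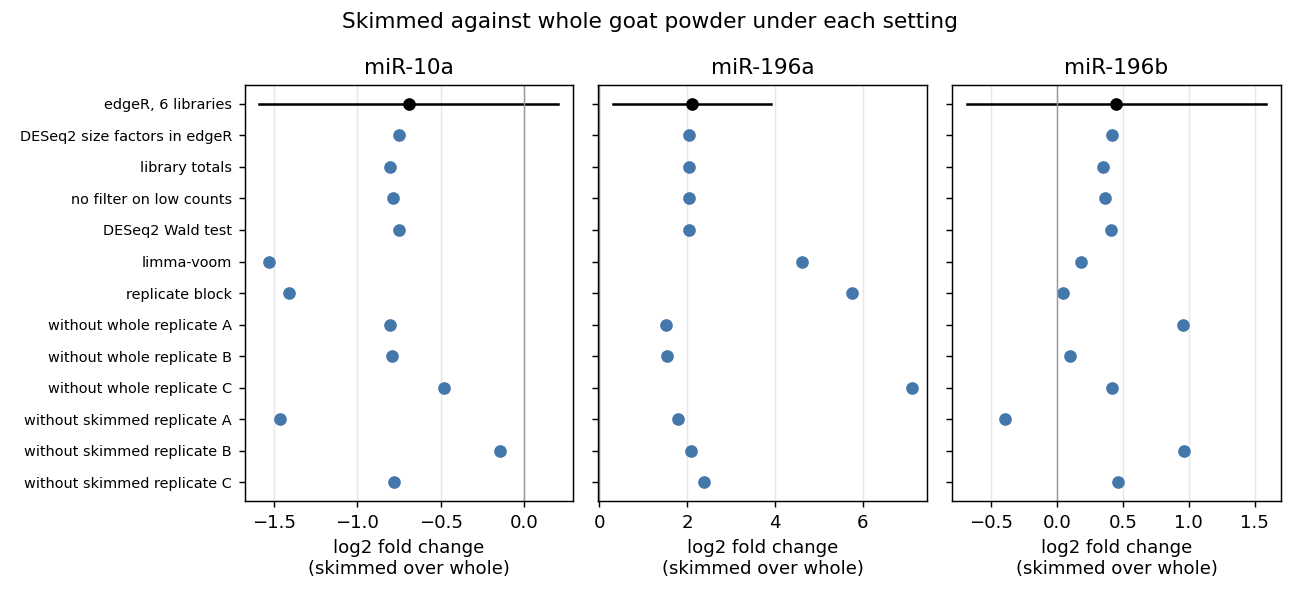
log2 fold change (skimmed over whole) of the 3 tested HOX cluster miRNAs, with the edgeR value over 6 libraries and its SE in black and each alternative setting in blue; the horizontal scales differ between panels. miR-196a lies above 0 throughout but ranges up to 7.12 without whole C, miR-10a lies below 0 throughout, and miR-196b crosses 0 without skimmed A.

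The bovine powder, a single library, divided the group: miR-196a was high while miR-10a and miR-196b were nearly absent. No test was made, and species, product and library cannot be told apart. miR-196a stood at 648 CPM in bovine (95% Poisson interval 627 to 669), which was 15.0 times the goat mean and 6.99 times the highest goat library, skimmed A. It ranked at place 64 of 364 in the bovine library and at place 157 by goat mean. Set against the 214 miRNAs whose mean over the 7 libraries was 10 CPM or more, a bovine level above every goat library was seen for 48 (22.4%). A level of at least 10 times the goat mean was reached by 8 of them (3.74%), and 7 of the 8 had a larger ratio than miR-196a. With any 1 goat library left out, the ratio of bovine to goat mean for miR-196a was 12.5 to 19.4.

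miR-10a stood at 3.70 CPM in bovine (21 reads, interval 2.29 to 5.66), so that the goat mean was 69.6 times higher and the lowest goat library, skimmed B, 4.45 times higher. miR-196b stood at 1.31 CPM (7.42 reads, interval 0.542 to 2.64), with the goat mean 49.6 times and the lowest goat library 9.05 times higher. Without skimmed B the lowest goat library was 57.8 times the bovine level for miR-10a and 20.5 times for miR-196b. Levels this far down were frequent in the bovine library, since 96 of the 214 miRNAs (44.9%) stood at most at a 10th of the goat mean, and 98 (45.8%) below every goat library. Those 96 had a median of 0.745% of the goat mean, with quartiles of 0.552% and 1.15%, and 13 of them were at 0. By the same measure miR-10a stood at 1.44% and miR-196b at 2.02%, above the upper quartile. miR-10b had 1 read in the bovine library, 0.176 CPM with an interval of 0.00446 to 0.982, which spans the values of the 5 goat libraries other than whole A.

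**Figure D4:**
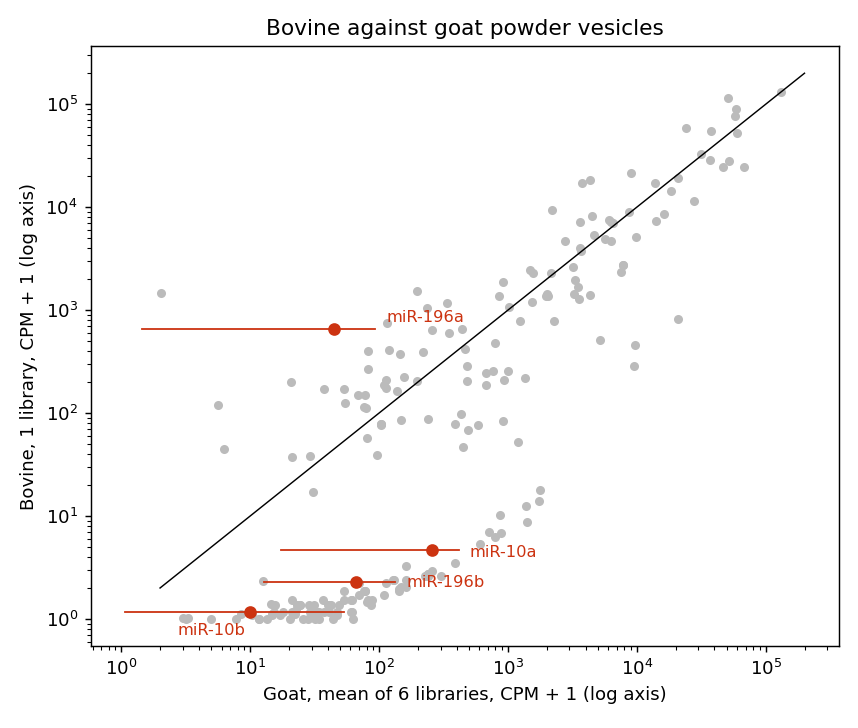
Level of each tested miRNA (grey) and of the HOX cluster miRNAs (red, with miR-10b added) in the bovine library against the mean of the 6 goat libraries, both as CPM + 1 on log axes; red horizontal lines span the lowest to the highest goat library and the black line marks equal levels. miR-196a lies above the line at 648 CPM in bovine, and miR-10a and miR-196b lie in the lower band of miRNAs near absent from bovine.

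The split of reads inside each family was compared next. Of the summed miR-196a and miR-196b reads, miR-196a took 99.8% in bovine and 0.502%, 2.16%, 48.3%, 41.1%, 86.3% and 36.5% in whole A, B and C and skimmed A, B and C. The goat values spread over most of the scale, and the bovine value lay above all of them. The summed level of this pair was 649 CPM in bovine and 27.4 to 226 CPM in goat. The summed level of miR-10a and miR-10b was 3.88 CPM in bovine and 16.5 to 417 CPM in goat.

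Among the same 214 miRNAs, the patterns most like each member were ranked by Pearson's r of log2(CPM + 1) over the 7 libraries, as a description. The points share library and depth, and the bovine library is 1 of them. For miR-10a these were miR-493 (r = 0.95), miR-29d-3p (0.94) and miR-17-5p (0.94). All 3 had their lowest goat value in skimmed B, at 0.422, 2.56 and 0 CPM, and at most 1.33 CPM in bovine. For miR-196b they were miR-15b (r = 0.92), miR-10a (0.92) and miR-335 (0.89). Over the 6 goat libraries alone, r between miR-10a and miR-196b was 0.77. For miR-196a the most alike were miR-1468 (r = 0.81), miR-1260b (0.79) and the epithelial miR-200c (0.79). Of these miR-1468 was also lowest in whole A and B, at 46.2 and 31.4 CPM, but far from absent there, against 60.7 to 152 CPM in the other goat libraries. With log2(CPM + 10) in place of log2(CPM + 1), miR-1468 left the leading 3 of miR-196a (r = 0.74, against 0.86 for miR-1260b and 0.88 for miR-200c), and miR-335 left those of miR-196b (r = 0.80).

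Relatives of these miRNAs from outside the HOX clusters were taken from fixed lists. The miR-99, miR-100 and miR-125 miRNAs share much of their sequence with miR-10. All 5 were tested, 0 rose and 0 fell in edgeR, and their values were below 0 in 5 of 5 (median log2 fold change -0.50, against 0.03 over all tested miRNAs). Between the highest and lowest goat library they differed by 1.45 to 5.999 times. In DESeq2 2 of them fell in skimmed powder, miR-125a (adjusted p = 0.0083) and miR-125b (0.029), against 12 of 243 miRNAs (4.94%). Their summed level was 11916 to 15990 CPM in whole, 8578 to 9703 CPM in skimmed and 35857 CPM in bovine powder. In bovine miR-125a, miR-125b, miR-99a-5p and miR-99b stood above every goat library, as did 48 of the 214 miRNAs above (22.4%). miR-100, at 16.1 CPM, lay within the goat range of 9.75 to 58.5 CPM. The let-7 and miR-98 miRNAs share a short 5′ stretch with miR-196, at an offset. Of their 10 tested members 0 rose and 0 fell in edgeR (median log2 fold change 0.25). In DESeq2 let-7a-5p alone rose in skimmed powder (adjusted p = 0.048), against 10 of 243 miRNAs (4.12%). miR-615, the remaining miRNA of the HOX clusters on the list, was not analysed here.

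The labelled source was checked against marker miRNAs. All 7 epithelial markers had reads in the tables, with a summed 143905 to 167219 CPM in whole, 154280 to 167505 CPM in skimmed and 134651 CPM in bovine powder. Stromal and endothelial miR-143, miR-145 and miR-126-3p summed to 1487 to 1654 CPM in whole, 1690 to 2458 CPM in skimmed and 17.2 CPM in bovine powder. miR-126-3p stood at 20.2 CPM in skimmed A, 43.6 CPM in skimmed B and 0 in all other libraries. It was higher in skimmed in DESeq2 (adjusted p = 0.029) and was not tested in edgeR. miR-199a and miR-214 were not analysed here. Leukocyte markers (5 of 5 names) summed to 2779 to 2910, 3239 to 3423 and 106 CPM. Muscle miR-1, the only muscle marker with a value here, stood at 0.305 to 27.1 CPM in whole, 37.2 to 119.8 CPM in skimmed and 0.352 CPM in bovine powder. The summed stromal and leukocyte levels and that of miR-1 were higher in skimmed than in whole without overlap. Of single tested miRNAs, 42 of 209 (20.1%) did not overlap, in either direction. miR-143, which made up most of the stromal sum, leukocyte miR-223 and miR-1 did not pass the threshold. Their adjusted p was 0.12, 0.12 and 0.64 in edgeR, and 0.14, 0.062 and 0.29 in DESeq2. The mean of miR-196a was also higher in skimmed, but its libraries overlapped. In bovine these marker levels were low, where miR-196a was high and miR-10a and miR-196b low. The part of these markers in the results above was not tested. The sums do not stand for each marker: leukocyte miR-150 stood at 7.30 to 17.8 CPM in whole and at most 0.121 CPM in skimmed powder (lower in DESeq2, adjusted p = 0.029, but not past the threshold in edgeR, 0.12), and the log2 fold changes of miR-142-5p and stromal miR-145 were -0.20 and -0.56, not past the threshold in edgeR or DESeq2. Red cell miR-486 stood at 23.6 to 72.8, 15.6 to 38.6 and 0.176 CPM, while miR-451 and miR-144 were not analysed here. Liver miR-122 stood at 49.9 CPM in skimmed A and at most 0.251 CPM in the others. Nerve markers summed to 447 to 903, 708 to 713 and 246 CPM, of which miR-128 alone held 447 to 893, 679 to 700 and 246 CPM. miR-9 stood at 0 to 69.8, 12.9 to 28.2 and 0.117 CPM, and miR-124a had reads only in whole A (9.35 CPM).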

How the data were processed

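The deposited tables hold counts for mature miRNAs under bovine names, per the file headers. Only 36.9% to 46.7% of nonzero values were whole (within 1e-06), so the deposited values were read as estimated counts that the authors had not normalized, since library totals differ. The sources used here do not give the aligner, counter, miRNA reference or genome build. How goat reads that differ from bovine entries were treated is not given either. CPM were computed from the total over the 364 miRNAs. Counts were rounded before testing. Skimmed was compared with whole powder in edgeR 4.0.16 (R 4.3.3; default filter, TMM scaling, quasi-likelihood test, Benjamini-Hochberg adjustment over 209 miRNAs), with DESeq2 1.42.0 and limma 3.58.1 as alternatives. An SE is the log2 fold change divided by the square root of F. The fit was tested on simulated data, with 40 changed miRNAs in each of 20 simulations. Bovine values have exact Poisson intervals at 95%, evaluated at the estimated reads. Without molecular identifiers PCR copies cannot be told from separate molecules, so intervals cover counting error only. The miRNAs named were the 4 members, rows of the lists of relatives and markers, and the 3 rows most like each member. The members and lists were chosen with earlier results of these data known.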

Additional observations from a re-analysis of the deposited data

Results flagged for a closer look

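In the 6 goat libraries, miR-10b stood at 52.3 CPM in whole A and at 0.0604 to 0.503 CPM in the others. The gap from whole A to the next library was 0.992 of the whole range, above Dixon's 95% critical value for 6 samples. Chance flags about 1 in 20 groups where values are roughly normal, which these are not. For 4 to 8 of the 364 miRNAs per goat library, that library alone held at least 100 reads and all others at most 10. In whole A there were 6 such miRNAs, miR-10b among them.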

How the results depend on the processing

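Over all miRNAs, 1 passed in edgeR with TMM scaling, 0 with DESeq2 size factors or with library totals, 2 without the filter on low counts, 22 in DESeq2's Wald test, 1 in limma-voom, and 0 to 1 when a library was left out. No member passed in any of these fits (0 in each). With the letters A to C as a replicate block 0 miRNAs passed, and the log2 fold changes were -1.41 for miR-10a, 5.75 for miR-196a and 0.05 for miR-196b; limma-voom gave -1.53, 4.61 and 0.19. The deviations of same-lettered libraries correlated at 0.18, 0.14 and 0.06, so the letters were not taken as pairs, although each library correlated best with its own letter. With a library left out, miR-196b ranged from -0.39 to 0.96, its sign turning without skimmed A; the cause was not tested. The log2 ratio of bovine to goat mean for miR-10b ranged from -0.88 without whole A to -5.94 over the fits that leave out a library, an alternative chosen after seeing the data. Computing CPM without let-7a-5p left the goat means within their spread. TMM scaling over 7 libraries moved the log2 ratio of bovine to goat mean from -6.12 to -5.68 for miR-10a and from -5.67 to -5.20 for miR-10b. It moved from 3.90 to 4.33 for miR-196a and from -5.63 to -5.27 for miR-196b. No sign changed, but for miR-10a, miR-196a and miR-196b these values lay outside the range with a goat library left out. With log2(CPM + 10) in the ranking of patterns at least 2 of each leading 3 were kept, with miR-1468 lost for miR-196a and miR-335 for miR-196b. Reads near 0 limit miR-10b throughout.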
